A study of Homo sapiens with 21 samples.

Results

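Cyclic nucleotide phosphodiesterases are the enzymes that end cAMP and cGMP signals, and 10 of their genes were looked up by symbol in a table of read counts from HepG2 cells given caffeine. Of the 10, 8 were found among the 37637 features of the table: PDE3A, PDE3B, PDE4A, PDE4D, PDE6D, PDE7A, PDE8A and PDE9A. PDE4B and PDE10A were not analysed here. All 8 passed the filter on low counts and were tested. HepG2 is an established human liver cancer line. The 7 groups had 3 libraries each, described as biological replicates, and received caffeine at 0, 0.01, 0.1, 1, 10, 100 or 1000 µM for 6 h in DMEM without serum, so the 0 µM cells were also without serum. The sample labels give the controls as caffeine at 0 µM, and the design text as 0 µM of coumarin. RNA was extracted with Trizol, selected with poly(dT) beads and sequenced, and reads were counted per gene. The labels name no other treatment or genetic change, and the series asks how the transcriptome responds over the dose range.

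Phosphodiesterases hydrolyse the cyclic phosphate ring of cAMP or cGMP, and so oppose adenylyl and guanylyl cyclases. The families differ in substrate: PDE4, PDE7 and PDE8 enzymes act on cAMP, PDE9A on cGMP, and PDE3 enzymes on both, with cGMP slowing their hydrolysis of cAMP. In liver, PDE3B is one route by which insulin lowers cAMP and restrains glucose output. Caffeine, like other methylxanthines, is a weak and unselective inhibitor of many of these enzymes at high concentrations, while PDE8 and PDE9 enzymes are known as little sensitive to the related methylxanthine IBMX. PDE6D is a member by name only: it was found as a subunit of the retinal PDE6 enzyme, has no catalytic domain, and carries prenylated proteins such as RAS and RHEB between membranes.

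Total counts ran from 28043623 to 40827833 per library. The hepatocyte markers ALB, APOB, APOA1, TTR, SERPINA1, FGB and AFP all had at least 1437 counts in every library. The leukocyte gene PTPRC had at most 1 count and the fibroblast genes COL1A1 and COL1A2 at most 6 and 0. Of the other markers looked up, GFAP had 4 to 15 counts per library, and PECAM1 was not in the table. Mitochondrial genes took 4.96% to 14.2% of counts. Replicate 1 at 0.01 µM stood somewhat apart, with the lowest median correlation with its own dose (0.969), and it held the highest values of PDE3B and PDE4D and the lowest of PDE4A and PDE9A. Replicate 3 at 1 µM had the highest mitochondrial share and the lowest TMM factor (0.923), and it held the lowest PDE3B and the highest PDE4A. Without it the log2 fold change at 1 µM was 0.28 for PDE3B (0.15 with it) and 0.10 for PDE4A (0.25 with it), and neither passed in edgeR. Levels are given as CPM, a count divided by library size, after TMM scaling, a correction for library composition. Changes are log2 fold changes with standard errors (SE) from 1 edgeR quasi-likelihood fit over all 21 libraries, and a gene was called where its p, adjusted by Benjamini and Hochberg's method over the 17468 features tested, was under 0.05. RNA per cell and numbers of cells cannot be told apart in such bulk counts.

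At 1000 µM, 2 of the 8 genes differed from 0 µM: PDE8A rose 1.61-fold and PDE6D fell to 0.573 of its control level. This count stands against 41.2% of all tested features called in the same comparison, with 20.6% higher and 20.6% lower. PDE3A, PDE3B, PDE4A, PDE4D, PDE7A and PDE9A did not pass. The median log2 fold change of the 8 genes was 0.16, against -0.03 over all tested features. Absolute log2 fold changes had a median of 0.18 in the 8 genes and 0.40 over all features.

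**Figure D1:**
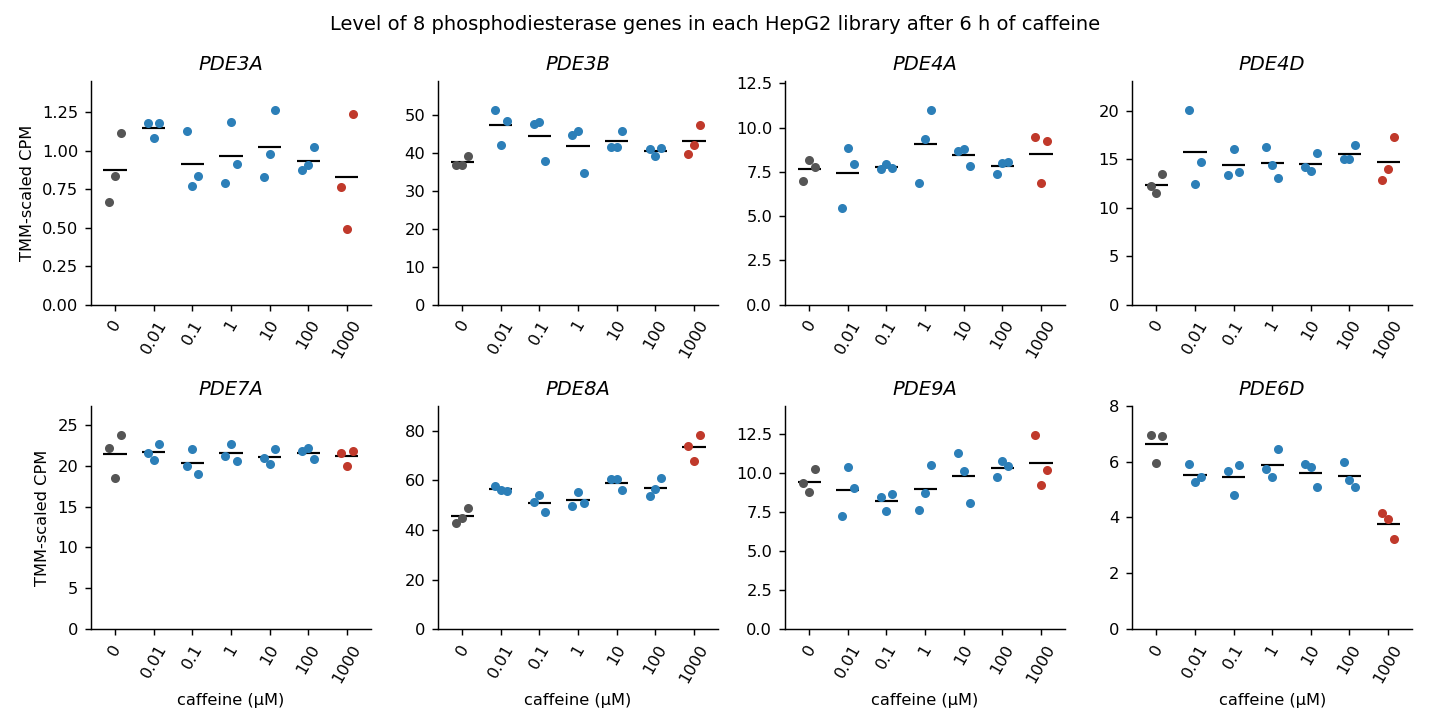
TMM-scaled CPM (y axis, from 0) of 8 phosphodiesterase genes in each of 21 HepG2 libraries by caffeine dose in µM (x axis, evenly spaced steps). Points are libraries (grey 0 µM, red 1000 µM, blue the doses between), and bars are means of 3. The 1000 µM libraries of PDE8A (67.7 to 78.3 CPM) lie above, and those of PDE6D (3.23 to 4.17 CPM) below, all other libraries.

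The genes differed widely in level. Per kilobase of exon (union of exons in GENCODE v29), the order at 0 µM was PDE8A at 5.76 ± 0.387 CPM per kb (SD, n = 3), PDE3B at 3.21 ± 0.122, PDE7A at 2.89 ± 0.367, PDE6D at 2.32 ± 0.200, PDE9A at 1.80 ± 0.142, PDE4A at 1.149 ± 0.0937, PDE4D at 0.761 ± 0.0620 and PDE3A at 0.104 ± 0.0270. PDE3B and PDE7A overlapped between libraries in this order, and the other neighbours did not. At 1000 µM PDE6D, at 1.33 ± 0.171 CPM per kb, had moved below PDE9A at 2.02 ± 0.314, and its libraries overlapped those of PDE4A at 1.28 ± 0.213. These lengths come from another annotation release than the IDs of the table, so the order is approximate. Exons of PDE3A, PDE4D and PDE7A share 404, 227 and 116 bases with AC129102.1, PART1 and MTFR1 on the opposite strand, so some of their counts are uncertain. PDE3A was the scarcest of the 8, with 20 to 46 counts per library, while PDE8A had 1276 to 2751.

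PDE8A (ENSG00000073417.15) encodes a high-affinity cAMP phosphodiesterase and lies on the plus strand of chromosome 15, at chr15:84980440-85139145 in GRCh38 (GENCODE v29). None of its annotated exons overlaps another gene's. RefSeq lists 3 promoters for it (GRCh38.p14, from 250 bases before to 50 after a start), 2 of which overlap. The upstream one and the first of the overlapping pair are shown because PDE8A is the gene of the 8 that rose with dose, written 5′ to 3′, with the motif GCGTG or its reverse complement CACGC in capitals.
PDE8A chr15:84980217-84980516, plus strand: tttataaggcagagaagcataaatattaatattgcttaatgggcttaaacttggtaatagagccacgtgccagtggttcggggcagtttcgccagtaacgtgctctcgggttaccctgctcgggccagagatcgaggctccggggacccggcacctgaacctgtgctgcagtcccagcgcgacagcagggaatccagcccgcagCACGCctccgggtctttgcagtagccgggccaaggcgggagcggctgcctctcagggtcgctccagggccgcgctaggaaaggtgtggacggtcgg
PDE8A chr15:84981606-84981905, plus strand: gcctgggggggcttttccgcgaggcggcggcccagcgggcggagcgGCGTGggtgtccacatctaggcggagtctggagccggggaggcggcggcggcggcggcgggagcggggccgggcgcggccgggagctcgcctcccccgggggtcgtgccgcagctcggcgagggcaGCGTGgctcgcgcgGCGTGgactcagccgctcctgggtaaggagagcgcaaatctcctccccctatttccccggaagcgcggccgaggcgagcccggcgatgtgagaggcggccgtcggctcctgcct

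PDE8A was at 42.7, 45.0 and 48.7 CPM in the libraries at 0 µM. At 0.01 µM it was at 57.8, 56.0 and 55.5 CPM, at 0.1 µM at 51.1, 54.2 and 47.3 CPM, and at 1 µM at 49.8, 55.3 and 50.8 CPM. Every library at 0.01 and 1 µM thus lay above the controls, while 0.1 µM replicate 3 fell within their range. Such a separation, upward, was seen for 15.7% of tested features at 0.01 µM and for 11.1% at 1 µM. With 10 µM the libraries were at 60.5, 60.3 and 56.1 CPM, and with 100 µM at 53.8, 56.4 and 61.0 CPM. All of these exceeded the controls, as did 22.4% of tested features at 10 µM and 21.0% at 100 µM. The 1000 µM libraries were higher again, at 73.7, 67.7 and 78.3 CPM. They exceeded all other 18 libraries, which held for 8.10% of tested features.

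The log2 fold change of PDE8A at 1000 µM was 0.69 ± 0.08 (SE), with an adjusted p of 6.14e-06 in the edgeR fit, and it was higher in 3 of 3 libraries. It also passed at 10 µM (0.37 ± 0.08, adjusted p 0.00569), at 100 µM (0.33 ± 0.08, 0.03002) and at 0.01 µM (0.31 ± 0.08, 0.0411). In each of these comparisons PDE8A was the only 1 of the 8 genes called, and the shares of all features called were 22.0%, 6.02% and 4.95%. At 0.1 µM (0.16 ± 0.08, adjusted p 0.357) and 1 µM (0.19 ± 0.08, 0.167) it did not pass. At these 2 doses edgeR and DESeq2 called 0 of the 8 genes, and edgeR called 0 features in all. An unadjusted p under 0.05 (edgeR) was found for 2 of the 8 at 0.1 µM and for 1 at 1 µM. The share of all features with such a p was not counted, so these counts cannot be set against it.

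Leaving out 1 library could end the calls of PDE8A at 0.01 and 100 µM. In the first of these its adjusted p was 0.190 without 0 µM replicate 1 and 0.148 without 0 µM replicate 2. It was 0.122 without 0.01 µM replicate 1 and 0.0692 without 0.01 µM replicate 2. Each of these fits called 0 features in all, against 864 with all libraries. At 100 µM the adjusted p of PDE8A was 0.138 and 0.139 without 0 µM replicate 1 or 2. It was 0.0864 without 100 µM replicate 2 and 0.172 without 100 µM replicate 3. In that order these fits called 47, 26, 42 and 36 features in all, against 1051 with all libraries. The log2 fold change of PDE8A stayed between 0.27 and 0.38 at 0.01 µM and between 0.28 and 0.39 at 100 µM in the 6 fits that each left out 1 library. The calls at 10 and 1000 µM held in all 6 such fits each, with adjusted p of at most 0.0409 and 0.000109.

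**Figure D2:**
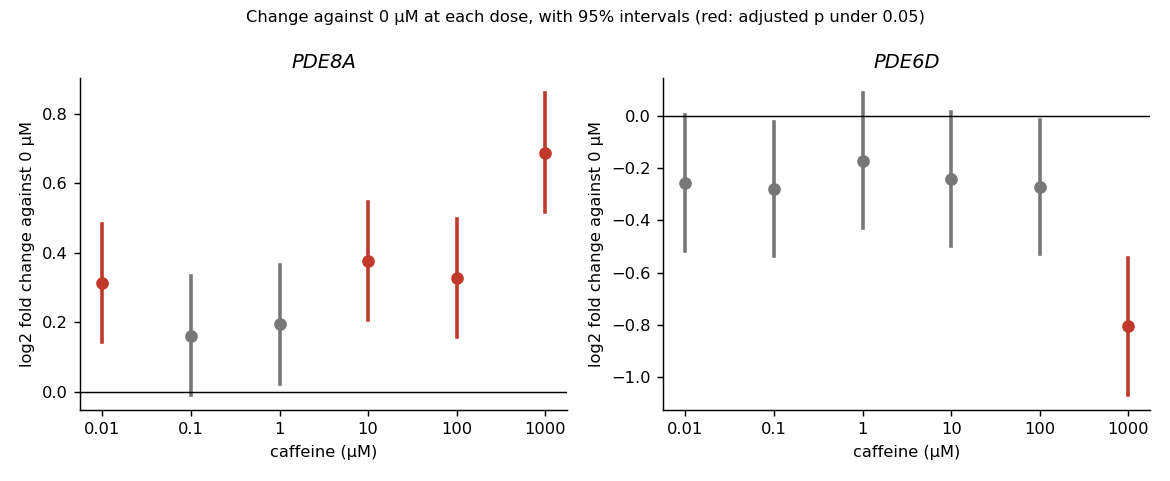
Log2 fold change against 0 µM (y axis) at each caffeine dose in µM (x axis) for PDE8A and PDE6D, with 95% intervals from the edgeR fit over 21 libraries. Red marks an adjusted p under 0.05. PDE8A passed at 0.01, 10, 100 and 1000 µM and PDE6D at 1000 µM, where the values were 0.69 and -0.80.

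All doses share the same 3 controls, so the 1000 µM group was also compared with each other dose. PDE8A was higher there than at 0.01 µM by a log2 fold change of 0.38 ± 0.08 (SE, edgeR adjusted p 0.0031), than at 0.1 µM by 0.53 ± 0.08 (0.000142) and than at 1 µM by 0.49 ± 0.08 (0.000276). Against 10 µM the difference was 0.31 ± 0.08 (adjusted p 0.0113), and against 100 µM 0.36 ± 0.08 (0.00576). PDE8A therefore passed against all other 6 groups in the upward direction, as did 5.32% of tested features. Against 10 µM it did not pass without 1000 µM replicate 3 (log2 fold change 0.26, adjusted p 0.0687), nor against 0.01 µM with those 6 libraries fitted alone (0.37, 0.0833).

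Both PDE8A and PDE6D differed among the 7 groups, where 28.1% of features did, and among the 6 treated doses, where 15.1% did. For PDE8A the adjusted p was 0.000189 and 0.00122 (edgeR). With the doses numbered in ascending order as steps, the log2 level of PDE8A had a slope of 0.08 ± 0.02 (SE) a step (edgeR adjusted p 0.000668). In this test 14.5% of features rose. Without the 1000 µM libraries its slope was 0.05 (adjusted p 0.0689) and the test among the groups left gave 0.0701. These fits called 1051 and 159 features in all.

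PDE6D (ENSG00000156973.14), the prenyl-binding chaperone, lies on the minus strand at chr2:231732425-231786272 (GRCh38, GENCODE v29). Its exons share 72 bases, 2.53% of their length, with COPS7B on the opposite strand, and whether counting used strand is not stated, so a part of its counts could belong to that gene. The 1 promoter RefSeq lists for it is shown beside those of PDE8A as that of the gene that moved the other way, with the motif TGACG in capitals.
PDE6D chr2:231781233-231781532, minus strand: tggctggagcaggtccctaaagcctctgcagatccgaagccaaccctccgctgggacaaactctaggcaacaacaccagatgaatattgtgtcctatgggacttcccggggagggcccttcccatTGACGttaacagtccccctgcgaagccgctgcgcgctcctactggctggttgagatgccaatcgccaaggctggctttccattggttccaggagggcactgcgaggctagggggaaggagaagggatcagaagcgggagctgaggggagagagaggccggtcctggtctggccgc

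PDE6D was at 6.96, 5.96 and 6.92 CPM in the controls, or 185 to 217 counts. In the 15 libraries from 0.01 to 100 µM it lay between 4.79 and 6.44 CPM. At 1000 µM it was at 4.17, 3.94 and 3.23 CPM, or 102 to 160 counts. These 3 libraries lay below the controls, as for 27.3% of tested features, and were the lowest of the 21, as for 5.26%. Against 0 µM the log2 fold change at 1000 µM was -0.80 ± 0.12 (SE), with an adjusted p of 8.24e-05 in the edgeR fit, and lower in 3 of 3 libraries.

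From 0.01 to 100 µM PDE6D did not pass against 0 µM, with log2 fold changes of -0.26, -0.28, -0.17, -0.24 and -0.27 in order of dose and adjusted p from 0.165 to 0.412 in edgeR. At 0.01, 0.1 and 10 µM its libraries nevertheless lay all below the controls, as did 16.3%, 12.4% and 23.4% of tested features. The 1000 µM group was lower than each other dose, by log2 fold changes of -0.55 against 0.01 µM, -0.52 against 0.1 µM, -0.63 against 1 µM, -0.56 against 10 µM and -0.53 against 100 µM, with adjusted p from 0.00137 to 0.00772 in edgeR. In the downward direction 3.77% of features passed against all other 6 groups. Against 100 µM the adjusted p was 0.0558 without 100 µM replicate 1 and 0.0553 without 1000 µM replicate 3. With the 6 libraries of a comparison fitted alone it was 0.0948 against 0.01 µM and 0.0521 against 1 µM.

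Among the 7 groups PDE6D had an adjusted p of 0.00414, and among the 6 treated doses 0.0141 (edgeR). The last became 0.0660 without 1000 µM replicate 2 and 0.143 without 1000 µM replicate 3. The slope on the dose step was -0.08 ± 0.02 (SE) per step (adjusted p 0.00827), where 14.5% of features fell. It was -0.04 (adjusted p 0.277) without the 1000 µM libraries.

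The remaining cAMP enzymes did not pass at any dose in the edgeR fit over all libraries. PDE3B, the insulin-regulated enzyme of liver and fat cells, was at 36.7, 36.8 and 39.2 CPM at 0 µM, at 51.2, 41.9 and 48.5 CPM at 0.01 µM. The highest dose gave 39.7, 42.1 and 47.3 CPM. Its libraries lay above the controls at 0.01, 10 and 1000 µM, as did 15.7%, 22.4% and 25.9% of tested features. The log2 fold change was 0.33 ± 0.11 (SE) at 0.01 µM (adjusted p 0.0861, edgeR) and 0.20 ± 0.11 at 1000 µM (0.181). DESeq2 called PDE3B at 0.01 µM (0.35, adjusted p 0.0295), where it called 2191 features in all, against 864 in edgeR. Without 0.01 µM replicate 1 the edgeR value there was 0.27 (adjusted p 0.219). The 95% interval at 1000 µM ran from 0.969 to 1.35-fold. Its paralog PDE3A, the form of heart and platelets, was scarce, at 20, 26 and 35 counts in the 0 µM libraries and 26, 20 and 39 in those given 1000 µM. The 95% interval of its fold change ran from 0.613 to 1.44.

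PDE4A and PDE4D belong to the cAMP-specific family that the drug rolipram inhibits. PDE4D was at 12.2, 11.5 and 13.5 CPM at 0 µM, at 15.1, 15.0 and 16.5 CPM at 100 µM. The highest dose gave 12.9, 14.04 and 17.4 CPM. It separated upward from the controls at 10 and 100 µM, as did 22.4% and 21.0% of tested features. Its log2 fold change was 0.32 ± 0.15 (SE) at 100 µM (adjusted p 0.187, edgeR) and 0.25 ± 0.15 at 1000 µM (0.193), with a 95% interval at 1000 µM from 0.956 to 1.48-fold. With the 6 libraries at 0 and 100 µM fitted alone, PDE4D passed at 100 µM (0.32, adjusted p 0.0313). That fit called 4015 features in all, against 1051 with all libraries fitted. PDE4A was at 6.96 to 8.18 CPM in the controls and at 9.45, 6.90 and 9.23 CPM at 1000 µM, so the groups overlapped, with an interval from 0.869 to 1.43-fold.

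PDE7A, a cAMP enzyme first described in T cells, had the narrowest range of the 8. It ran from 18.5 to 23.8 CPM over all 21 libraries, a ratio of 1.29 between the highest and the lowest, and both extremes were controls. The difference of 1000 from 0 µM was -0.02 ± 0.09 on the log2 scale (SE, adjusted p 0.868, edgeR), with a 95% interval from 0.861 to 1.13-fold. PDE9A, the cGMP enzyme of the set, was at 9.37, 8.79 and 10.3 CPM in the controls and at 12.5, 9.23 and 10.2 CPM at 1000 µM. The groups overlapped, with a 95% interval of the fold change from 0.898 to 1.40. It was lower than the controls in all 3 libraries at 0.1 µM, as were 12.4% of features, and did not pass there (edgeR adjusted p 0.567). Between 0.1 and 1000 µM its log2 difference was 0.37 ± 0.15 (adjusted p 0.0914), and it passed at 0.0498 without 1000 µM replicate 2.

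**Figure D3:**
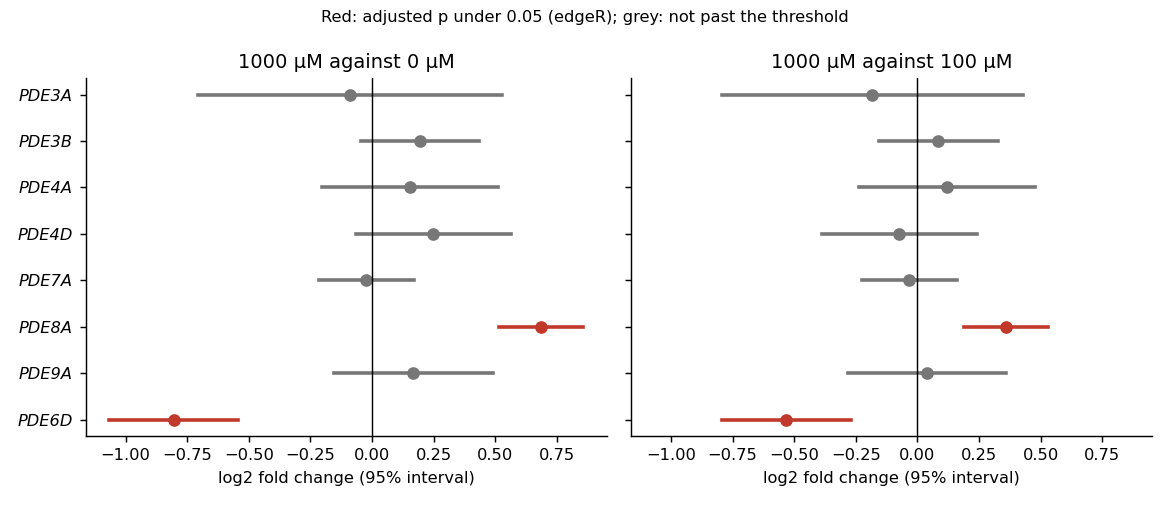
Log2 fold change (x axis) of 8 phosphodiesterase genes (y axis) at 1000 µM caffeine against 0 µM and against 100 µM, with 95% intervals from the edgeR fit. Red marks an adjusted p under 0.05. PDE8A (0.69 and 0.36) and PDE6D (-0.80 and -0.53) passed in both, and the intervals of the other 6 genes include 0.

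At 1000 µM against each lower dose, 2 of the 8 genes were called in every case, PDE8A and PDE6D, where 18.5% of features were called against 0.01 µM, 24.3% against 0.1 µM, 22.3% against 1 µM, 18.4% against 10 µM and 14.7% against 100 µM. On the dose step 1 of the 8 rose and 1 fell, where 14.5% of features rose and 14.5% fell.

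Promoter motifs were counted in the 18 promoters of 300 bases that RefSeq lists for 5 of the measured genes, PDE3A, PDE4A, PDE4D, PDE6D and PDE8A. Promoters on chromosome 8, where PDE7A lies, were left out of this count, and no entry was used for PDE3B and PDE9A. The core GCGTG of the element bound by the aryl hydrocarbon receptor, the receptor behind CYP1A1 induction, was found on either strand in 11 of the 18. It occurred in all 3 promoters of PDE8A, in all 5 of PDE4A and in some of PDE4D. PDE4A and PDE4D did not pass at any dose in the edgeR fit over all libraries. The core was absent from the promoters of PDE6D and PDE3A, 1 each, and 36.5% of the 35116 promoters in the whole list hold it. The core TGACG of the cAMP response element was found in 3 of the 18, in PDE4A, PDE4D and PDE6D, and in 24.6% of all promoters. The full element TGACGTCA, which contains that core on both strands, was found in 1, of PDE4A, and in 1.85% of all promoters. The 18 are not independent: 5 belong to PDE4A and 8 to PDE4D, and 2 of the 3 of PDE8A overlap. The promoters of PDE8A were 60.3% to 77.3% G and C, and the shares over all promoters were not matched for this. These are matches of letters, and which starts HepG2 cells use was not measured.

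By likeness over the 21 libraries (Pearson r of log2 CPM, a description over libraries that share depth and dose), the genes closest to PDE8A were SH3D19 (r 0.978), VEZF1 (0.977) and EPC2 (0.975). VEZF1, a zinc finger transcription factor, was at 47.8 ± 4.69 CPM (SD, n = 3) at 0 µM and 107 ± 11.7 at 1000 µM. EPC2, a chromatin protein of the Enhancer of polycomb family, went from 24.3 ± 2.42 to 48.7 ± 4.42 CPM, and SH3D19, an SH3 domain protein, from 64.0 ± 6.78 to 108 ± 9.01 CPM. Closest to PDE6D were COA3 (r 0.929), LRG1 (0.924) and PIERCE1 (0.920). COA3, an assembly factor of cytochrome c oxidase, was at 78.2 ± 5.09 CPM at 0 µM and 42.5 ± 5.68 at 1000 µM. LRG1, a secreted glycoprotein of liver, was at 52.3 ± 2.16 and 30.1 ± 3.24 CPM.

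The genes around the phosphodiesterases were read from 7 lists of 87 genes, of which 82 were in the table and 57 were tested. At 1000 µM 20 of the 57 rose and 7 fell (edgeR), against 20.6% of all features in each direction. At 0.1 and 1 µM 0 of the 57 were called. At 0.01 µM 3 rose and 0 fell, where 2.87% of all features rose and 2.08% fell. At 10 µM 12 rose and 3 fell, against 11.3% and 10.7%, and at 100 µM 3 rose and 2 fell, against 2.74% and 3.27%. The median log2 fold change of the 57 at 1000 µM was 0.08. Of the other phosphodiesterases 7 of 13 in the table were tested, with a median of -0.45, and 1 rose and 1 fell. PDE5A, the cGMP enzyme inhibited by sildenafil, rose from 0.758 ± 0.205 to 1.42 ± 0.218 CPM (log2 fold change 0.90 ± 0.33 SE, edgeR adjusted p 0.0376). PDE6C, a catalytic subunit of cone cells, fell from 0.720 ± 0.344 to 0.217 ± 0.0408 CPM (-1.71 ± 0.36, 0.00113). Both are scarce transcripts here.

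Of the enzymes that make cyclic nucleotides, 4 of 14 in the table were tested, and 3 rose at 1000 µM, all adenylyl cyclases, with a median log2 fold change of 0.54 over the 4. Over all features 20.6% rose and 20.6% fell there. ADCY7 went from 8.50 ± 0.523 CPM at 0 µM to 9.13 ± 0.144 at 100 µM and 16.2 ± 0.651 at 1000 µM (SD, n = 3). At 1000 µM the log2 fold change was 0.93 ± 0.15 (SE, edgeR adjusted p 0.000134) against 0 µM and 0.83 ± 0.15 (0.00128) against 100 µM. ADCY6, a cyclase inhibited by calcium, rose by 0.58 ± 0.11 (adjusted p 0.000346) and ADCY9 by 0.50 ± 0.12 (0.00341). Of 6 tested G protein alpha subunits, GNAI1, which inhibits cyclases, rose by 0.44 ± 0.11 (adjusted p 0.00365), and GNAS, which stimulates them, was lower by a log2 fold change of -0.30 ± 0.08 (0.0055). Both exporters of cyclic nucleotides, ABCC5 (0.71 ± 0.09, adjusted p 1.7e-05) and ABCC4 (0.58 ± 0.15, 0.00438), rose. Against 100 µM, GNAI1 (0.55, edgeR adjusted p 0.00271), ADCY6 (0.33, 0.0446) and 1 of the 2 exporters were higher at 1000 µM. ADCY9 (0.22, 0.2455) and GNAS (-0.01, 0.954) did not pass there. At 10 µM against 0 µM GNAS was already lower (-0.37, 0.00542) and ADCY9 higher (0.52, 0.00809).

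Among 9 tested effectors of cAMP and cGMP, 1 rose and 2 fell at 1000 µM, where 20.6% of all features rose and 20.6% fell. Their median log2 fold change was -0.40. PRKAR1A, the widespread type I regulatory subunit of protein kinase A, rose from 260 ± 21.2 to 394 ± 29.3 CPM (SD, n = 3). PRKAR1B, its close relative, fell from 74.7 ± 5.34 to 43.9 ± 4.20 CPM, and PKIG, an inhibitor of the kinase, from 57.6 ± 1.51 to 40.8 ± 4.43 CPM. The log2 fold changes were 0.60, -0.77 and -0.50, with adjusted p of 0.00029, 0.00033 and 0.00651 in edgeR. Of 10 tested transcripts known to be induced by cAMP, 4 rose and 1 fell, with a median of 0.31, against 20.6% of all features in each direction. Those that rose included PPARGC1A (1.09 ± 0.17, adjusted p 9.83e-05), G6PC1 (1.22 ± 0.24, 0.000671) and DUSP1 (0.35 ± 0.12, 0.0248). Of these G6PC1 was scarce, at 0.444 ± 0.0666 CPM at 0 µM and 1.04 ± 0.192 at 1000 µM (SD, n = 3). The one that fell was PER1, a clock gene (-0.43 ± 0.16, 0.036). The 5 that did not pass went both ways. They included SIK1 at -0.30 (adjusted p 0.182), FOS at -0.18 (0.579), CREM at -0.08 (0.548) and PCK1 at 0.28 (0.0695). PER1, SIK1, FOS, CREM and PCK1 were picked out after their values were seen. At 1000 µM against 100 µM, 3 of the 10 transcripts rose and 1 fell, and 1 of the 9 effectors rose and 1 fell. Over all features 8.15% rose and 6.55% fell there.

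Of 19 tested anchoring and partner proteins, 8 rose and 2 fell at 1000 µM, where 20.6% of all features rose and 20.6% fell. The median log2 fold change of the 19 was 0.25. The 2 that fell were ARL2 and RACK1, a scaffold that binds a PDE4D form (-0.34 ± 0.10 SE, edgeR adjusted p 0.00896). The scaffold AKAP12 rose from 62.0 ± 5.52 to 136 ± 15.6 CPM (log2 fold change 1.13 ± 0.14 SE, edgeR adjusted p 7.06e-06). NDEL1, a dynein regulator, rose by 0.72 ± 0.11 (5.09e-05) and RPGR, a ciliary protein that binds PDE6D, by 0.76 ± 0.12 (9.2e-05). RACK1, ARL2 and ARL3 were picked out after their values were seen, the last 2 being GTPases that release cargo from PDE6D. ARL2 fell from 80.7 ± 1.59 to 52.8 ± 11.5 CPM (-0.61 ± 0.20, adjusted p 0.0209), and ARL3 was at 28.1 ± 1.81 and 23.3 ± 0.732 CPM (-0.27 ± 0.11, 0.0587). At 1000 µM against 100 µM, 3 of the 19 rose and 0 fell, where 8.15% of all features rose and 6.55% fell. NDEL1 passed there (0.32, edgeR adjusted p 0.0455). AKAP12 (0.35, 0.0877), RPGR (0.30, 0.0984), RACK1 (-0.04, 0.8445) and ARL2 (-0.56, 0.0698) did not.

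**Figure D4:**
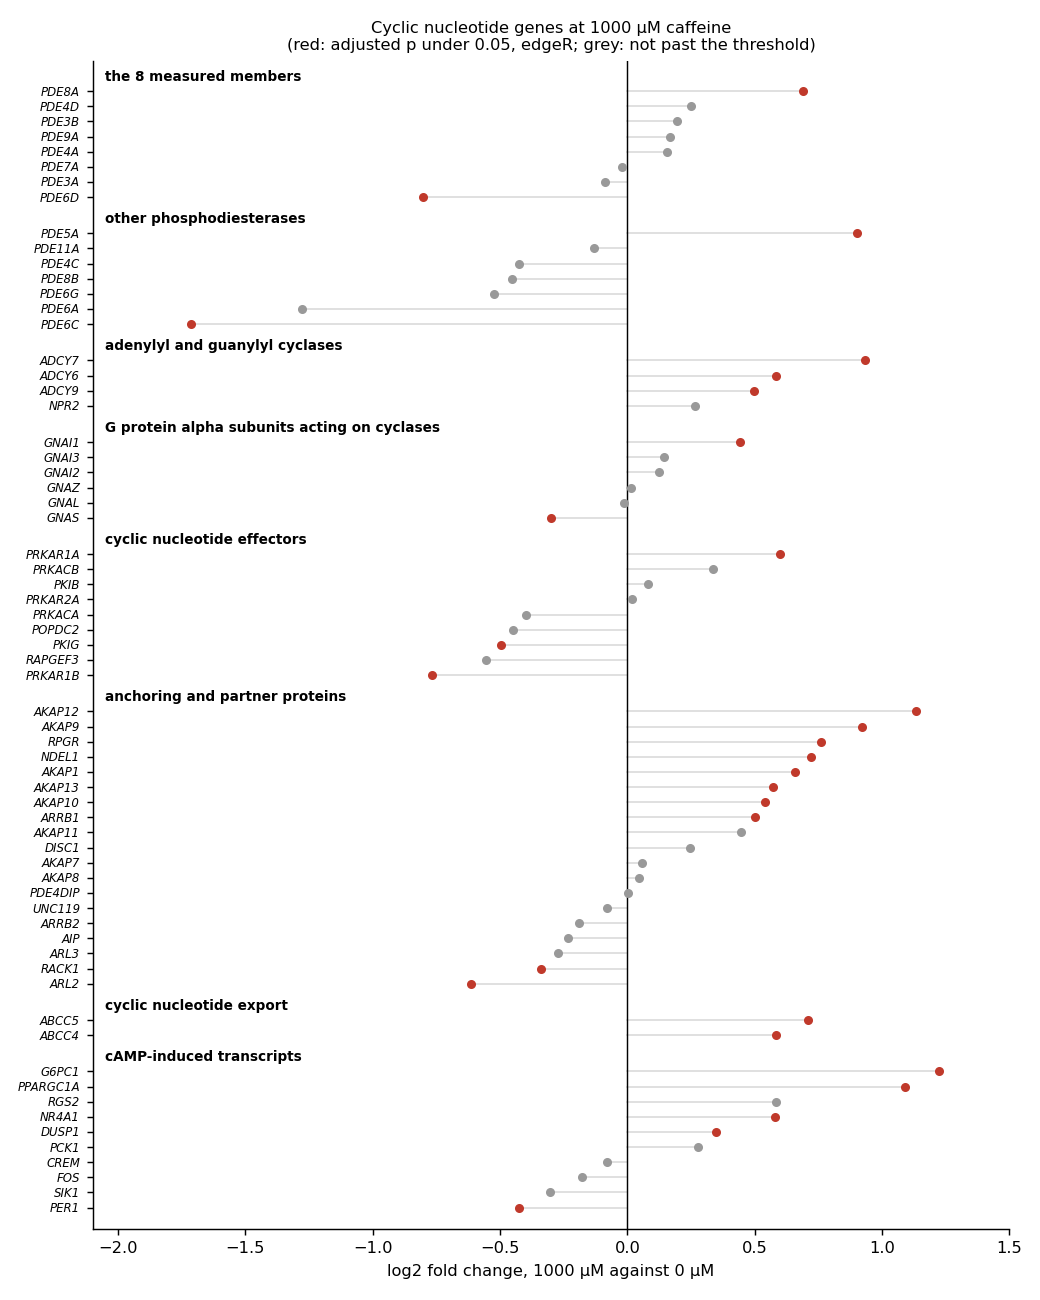
Log2 fold change (x axis) at 1000 µM against 0 µM caffeine for the 8 measured phosphodiesterase genes and the 57 tested genes of 7 related lists (y axis, 1 gene a row). Red marks an adjusted p under 0.05 in edgeR. Of the 57, 20 rose and 7 fell, including 3 of 4 cyclases and both cyclic nucleotide exporters that rose. Over all tested features 20.6% rose and 20.6% fell.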

How the data were processed

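Read counts per gene, as deposited by the authors, were used from 21 columns of 1 table, and 21 other per-sample columns were not used. The submitters' processing notes name HISAT2, DESeq2 and the GRCh38 build. The counter, annotation release and use of strand are not given in the sources used here. Genes were matched by Ensembl ID without version. The design text names coumarin for the 0 µM controls, while the labels give caffeine, and the labels were followed.

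Counts were fitted with edgeR 4.0.16 in R 4.3.3 (TMM scaling, filterByExpr with a minimum count of 10, quasi-likelihood, 1 coefficient per dose, 14 residual degrees of freedom). Of 37637 features, 17468 were tested, 1617 of them without an annotated gene. P-values were two-sided and adjusted by the Benjamini-Hochberg method over all tested features. SEs were derived from the log2 fold change and its F statistic. Nothing beyond the design text says that the replicates came from separate cultures, so p-values measure the spread between these libraries. The script was tested on simulated data. Promoters were taken from RefSeq (GRCh38.p14), and those on chromosome 8 were not used for the listed genes. Alternatives were DESeq2 1.42.0, other scaling, filters, covariates and samples.

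All listed genes are described. Other genes named are up to 3 called genes per list at 1000 µM by smallest p, and the 3 most alike genes for PDE8A and PDE6D. RACK1, ARL2, ARL3, PER1, SIK1, FOS, CREM and PCK1 fall outside this rule and were chosen after their values were seen. The members, lists and tests were chosen with earlier results of these data known.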

Additional observations from a re-analysis of the deposited data

How the results depend on the processing

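PDE8A and PDE6D remained called at 1000 µM against 0 µM in all alternatives run, with log2 fold changes of 0.64 to 0.76 and -0.87 to -0.70 when 1 library was left out. No direction of a called value reversed. Of the 8 genes, the number called at 0.01 µM against 0 µM was 2 with DESeq2 (7 tested), where 2191 of all features were called. It was 0 with the mitochondrial share as a covariate, with no filter, with the 6 libraries alone or with the replicate block. In that order these called 1, 747, 2 and 0 of all features, against 864 in the edgeR fit over all libraries. At 100 µM against 0 µM the number of the 8 called was 2 with the 6 libraries alone, where 4015 of all features were called. It was 0 with the replicate block, where 445 features were called and PDE8A had an adjusted p of 0.0522 (edgeR). The edgeR fit over all libraries called 1051 there. At 1000 µM against 0.01 µM and 1 µM the number of the 8 called was 0 and 1 with the 6 libraries alone. These fits called 958 and 1371 features, against 3224 and 3903 with all libraries. Among the 6 treated doses the number of the 8 called was 1 with no filter, where 2452 features were called, against 2645 with the filter. Without the 1000 µM libraries it was 0 among the groups (159 features called) and 0 on the dose step (1051 features). It was 1 on the dose step in the 18 treated libraries (1984 features). With all libraries 4901 features were called among the groups and 5073 on the dose step. Leaving out 1 library at a time gave 0 to 1 genes at 0.01 µM and at 100 µM against 0 µM, 1 to 2 among the treated doses and at 1000 µM against 10 and 100 µM, and 2 to 3 against 0.1 µM. The fits that gave 1 among the treated doses called 1707 and 1300 features, against 2645 with all libraries. Those that gave 1 at 1000 µM called 1865 against 10 µM, and 1405 and 1302 against 100 µM. With all libraries these were 3217 and 2568. The replicate numbers did not pair the libraries: over 63 same-number pairs the deviations correlated between -0.437 and 0.249, with 11 over 0.1, and 5 of 21 libraries correlated best with their own number. Over the 57 related genes, median-ratio scaling and DESeq2 each called 21 higher and 7 lower at 1000 µM. PDE3A had the fewest counts of the 8 genes, 20 to 46 per library.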
